A study of Mus musculus with 7 samples.

Results

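The genes described here are the 10 members of the Myc, Max and Mxd network: Myc, Mycn, Mycl, Max, Mxd1, Mxd3, Mxd4, Mxi1, Mnt and Mga. They were found by matching these symbols to the Ensembl identifiers of the count table, and all 10 were among its 54838 genes. RNA was sequenced from 7 mouse cultures grown in KO-DMEM medium with FBS and the cytokine LIF, which maintains pluripotent mouse cells. The first was 1 library of V6.5, an embryonic stem cell line (ESC). The others were 3 colonies of induced pluripotent stem cells (iPSC) from bulk germinal center B cells (GC colonies) and 3 colonies titled M (M colonies). M was read as the second source in the study's design, germinal center B cells sorted by an endogenous Myc-GFP reporter for activation by T follicular helper cells. The source cells were B220+ CD38- Fas+ spleen cells of male mice, 9 days after SRBC immunization. They spent 6 days on mouse embryonic fibroblasts with cytokines, were reprogrammed with doxycycline (Dox) for 10 days and then grew for 4 days without it. Each colony was picked as 1 clone, and feeders were reduced by 45 min of pre-plating. The labels name neither the genes driven by Dox, nor the animal behind each colony, nor whether GC colonies also carry the reporter allele, and they give no age or strain. P-values therefore measure spread among these colonies only.

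Myc, Mycn and Mycl are transcription factors of the basic helix-loop-helix zipper class that bind DNA as pairs with Max and drive growth genes. Mxd1, Mxd3, Mxd4, Mxi1 and Mnt compete for Max and bring the Sin3 corepressor to the same DNA word, the E-box CACGTG. Mga also pairs with Max and anchors a Polycomb complex, PRC1.6, that keeps germline genes silent in embryonic stem cells, where Mycn and Myc are known to support self-renewal.

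Because network proteins read this word, it was looked for in the promoters of the members themselves. RefSeq promoters (GRCm38.p6, 250 bases before to 50 after the start) were found for 9 members, all but Myc. CACGTG, which reads the same on both strands, was present for 3 of the 9 genes, against 8.09% of all 27025 genes with such a promoter. The 3 stretches are shown 5′ to 3′ on the gene's strand with the E-box in capitals. They come from chr5:34187884-34187960 (minus strand, Mxd4), chr11:74830761-74830846 (plus strand, Mnt) and chr12:76962239-76962291 (minus strand, Max).
Mxd4: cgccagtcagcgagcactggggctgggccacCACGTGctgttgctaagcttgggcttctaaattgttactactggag
Mnt: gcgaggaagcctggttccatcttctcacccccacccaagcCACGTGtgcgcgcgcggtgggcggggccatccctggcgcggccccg
Max: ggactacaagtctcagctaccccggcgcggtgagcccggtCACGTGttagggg
The E-box began 219 bases before the start in Mxd4, 123 in Mnt and 3 in Max. Of these 3 genes, Mxd4 is described below as higher in iPSC colonies than in ESC, and Max and Mnt did not pass the test. A match of letters is a description and not a bound site.

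Libraries held 31139508 to 35728921 counts. Levels below are CPM (counts scaled to library size) after TMM scaling of the 7 libraries, and a count of 0 would allow up to 3 counts, or 0.0840 to 0.0963 CPM before that scaling, for counting error only. The fewest counts of any member in a library were 121, for Mxd4 in ESC. M colonies 2 and 3 stood apart in having 0 counts for all 9 Y-linked genes looked at, whose sum was 117 to 138 CPM in the other 4 colonies and 25.5 CPM in ESC, and results are therefore also given without both. The 12 pluripotency markers summed to 6515 to 7035 CPM in the colonies and 8853 CPM in ESC. The 17 B cell markers, of the source cells, summed to 75.1 to 92.0 CPM in the colonies and 108.5 CPM in ESC. Of these, Blk and Gcsam were at 0 in every library, with Ighm at most 0.188 CPM and Igkc at most 0.111 CPM in any library.

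Per length of exon, Mycn had the highest level of the network in each of the 7 libraries, although in CPM Mga exceeded it in 6 of them. By edgeR, iPSC colonies differed from the ESC library in 4 of the 10 genes, or 40% beside 16.3% of all genes tested. Myc and Mxd4 were higher in the colonies, at 4.12-fold and 2.15-fold, and Mxd3 and Mxi1 were lower. The Mxi1 call depended on single colonies, as described below. Max, the shared partner, differed by 0.01 on the log2 scale. Between the 2 sources of colonies no member passed the edgeR test. Every M colony had more Myc than every GC colony, and 10.1% of all genes tested had M wholly above GC in this way. The levels of all members are plotted by library.

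**Figure D1:**
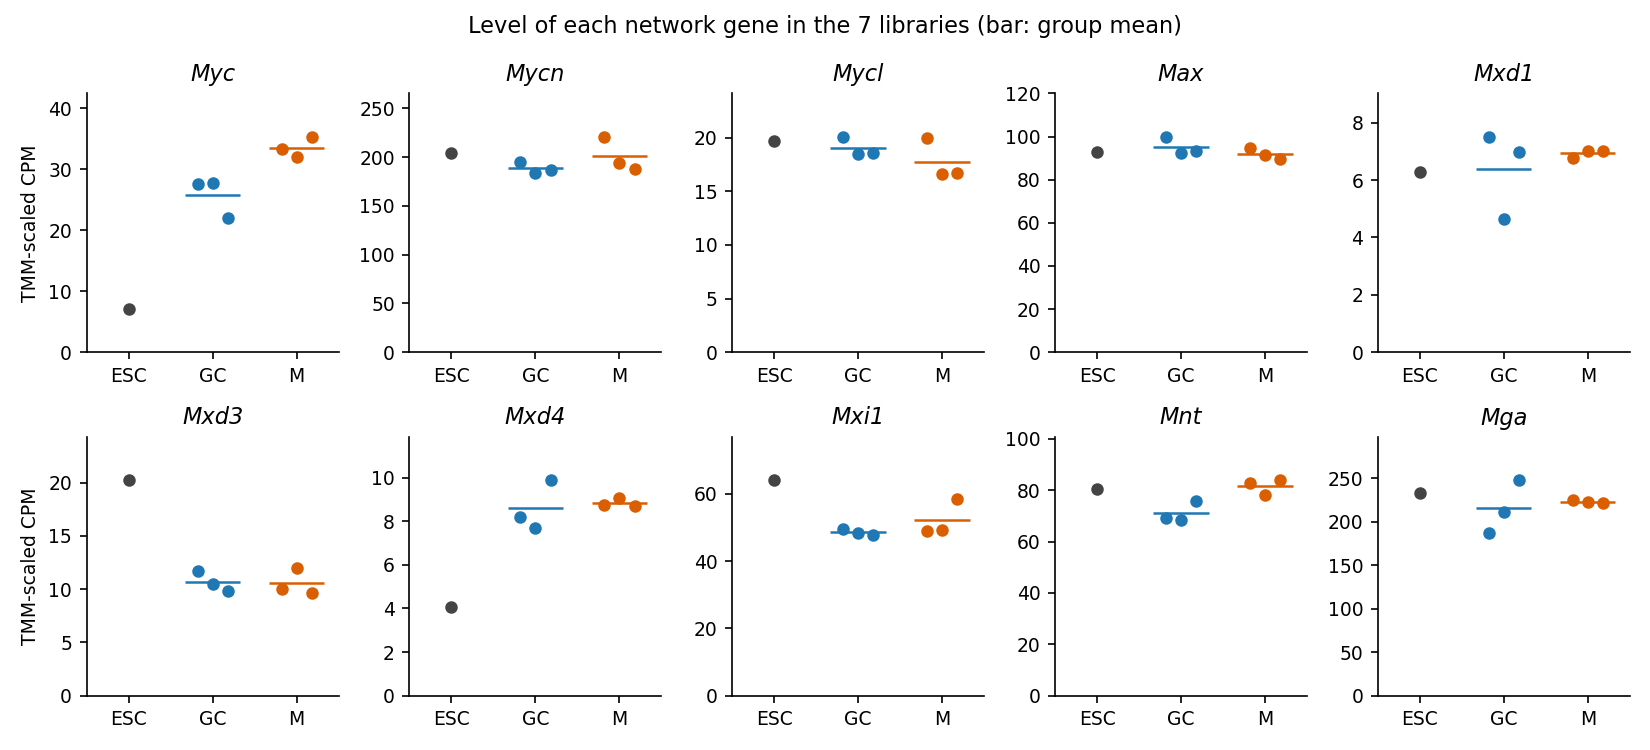
TMM-scaled CPM (vertical axis, from 0) of each of the 10 genes in the ESC library, the 3 GC colonies and the 3 M colonies (points), with group means as bars. Myc was 7.14 CPM in ESC and 22.0 to 35.3 CPM in the colonies, while no colony overlapped ESC in Mxd3, at 20.2 CPM in ESC and 9.67 to 12.0 CPM in the colonies.

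To compare levels between genes, CPM was divided by the length of each gene's merged exons in kilobases (kb). On this scale Mycn was highest, at 62.1 CPM per kb in ESC and 59.1 ± 4.1 CPM per kb in the colonies (SD, n = 6). Max followed with 25.8 CPM per kb in ESC and 26.0 ± 1.0 CPM per kb in the colonies. Mnt (16.5 ± 1.4 CPM per kb in the colonies), Mga (14.3 ± 1.3), Myc (10.9 ± 1.8) and Mxi1 (7.39 ± 0.60) came next. The ranges of neighbours in that order overlapped over the 6 colonies, but within each colony these genes kept this order. On merged exons, Mycl (4.55 ± 0.37 CPM per kb) and Mxd3 (4.48 ± 0.42) could not be ordered, nor could Mxd4 (1.03 ± 0.09) and Mxd1 (0.942 ± 0.143). The order of such close genes depends on the length used. Merged exons are 8483 bases for Mxd4 and 7072 for Mxd1, but their longest transcripts are 4627 and 4666 bases. For Mycl and Mxd3 the merged exons are 4038 and 2369 bases and the longest transcripts 3501 and 1742. In ESC the order of the lower genes differed, with Mxi1 (9.40 CPM per kb) and Mxd3 (8.54) above Mycl (4.88) and Myc (2.63), and Mxd1 (0.891) above Mxd4 (0.478).

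Of the summed per-length level of the 3 Myc genes, Mycn made up 89.2% in ESC and 76.9% to 81.7% in the colonies. Myc made up 3.78% in ESC. Its share was 13.7%, 14.5% and 11.7% in GC colonies 1 to 3 and 14.6%, 15.7% and 17.6% in M colonies 1 to 3. The means were 13.3% ± 1.5 and 15.9% ± 1.5 (SD, n = 3 each). The colony values of the 2 sources did not overlap but came close, at 14.49% in GC colony 2 and 14.58% in M colony 1. The two-sided exact permutation test gave p = 0.10, the smallest that 3 against 3 allows, and 0.20 when adjusted over the 2 shares tested. The 3 Myc genes together held 47.2% of the level of the whole network in ESC, 50.7% ± 1.3 in GC colonies and 51.9% ± 1.7 in M colonies, and these colony groups overlapped (exact permutation p = 0.50, adjusted p = 0.50). Mxd1, Mxd3, Mxd4 and Mxi1 together held 13.1% in ESC and 8.56% to 10.0% in the colonies.

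**Figure D2:**
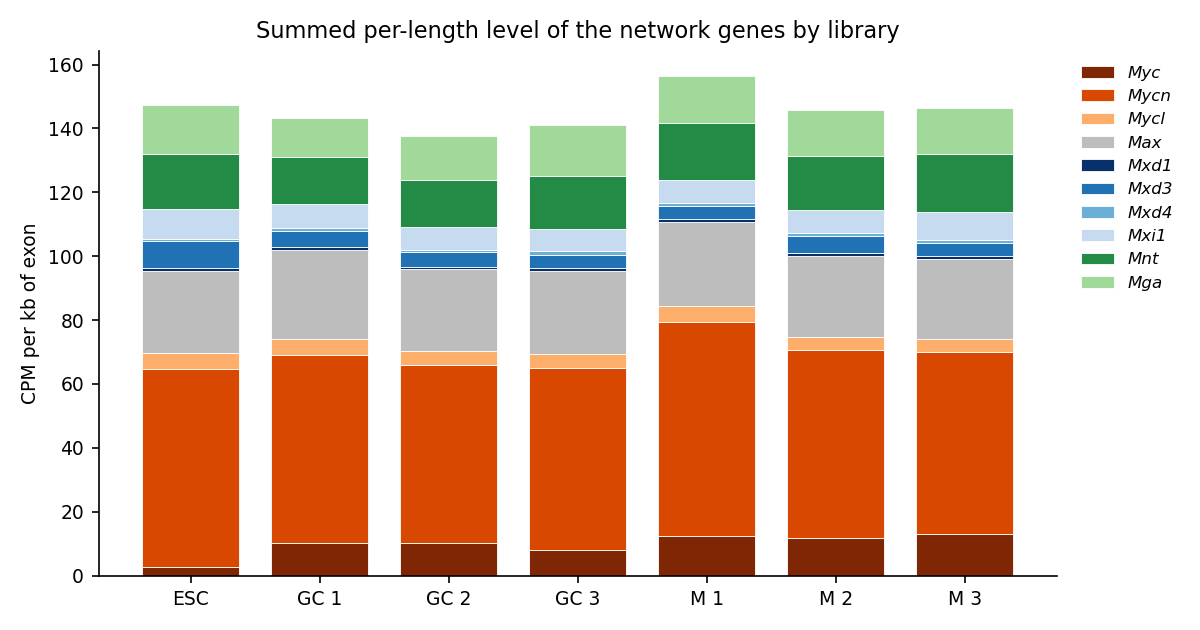
Stacked bars of CPM per kb of exon (vertical axis, from 0) for the 10 genes in each of the 7 libraries. Mycn is the largest block in each bar, and the Myc block at the base grows from 2.63 CPM per kb in ESC to between 8.11 and 13.0 in the colonies.

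iPSC colonies were compared with ESC to ask how the reprogrammed cells differed from an established pluripotent line. The mean of both colony groups was set against the ESC library in a fit of all 7 libraries. Of the 10 members, all of which passed the low-count filter, 2 rose, 2 fell and 6 did not pass the edgeR threshold (Benjamini-Hochberg adjusted p under 0.05). Over all 20502 genes tested, 16.3% were called, 8.76% upward and 7.56% downward, and 28.6% had an unadjusted p under 0.05, as had the same 4 members. The ESC value lay outside the range of the colonies in 4 of 10 members, against 51.4% of all genes tested. In 2 members all colonies were above ESC (25.7% of all genes) and in 2 all were below it (25.7%). The median log2 change was -0.076 over the members and 0.015 over all genes. Spread could be estimated from the colonies alone, and the test assumes that ESC, with its 1 library, would vary as much as they did.

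Myc (ENSMUSG00000022346, chromosome 15 from 61985391 to 61990374, plus strand, GRCm38) had the largest difference of the 10. Its level was 7.14 CPM in ESC, 27.5, 27.7 and 22.0 CPM in GC colonies 1 to 3 and 33.4, 31.9 and 35.3 CPM in M colonies 1 to 3. ESC stood far below every colony. The fitted log2 change was 2.04 ± 0.17 (SE), with an edgeR adjusted p = 9.44e-06, and it ran from 1.86 to 2.10 over 14 alternative settings, each of which called it. It was 2.04 without M colonies 2 and 3.

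Counts per gene do not separate RNA of a Dox-driven copy from that of the cell's own gene. Pou5f1, Sox2 and Klf4, which are often delivered together with Myc for reprogramming, were all lower in the colonies, at 432 ± 65, 395 ± 31 and 454 ± 76 CPM (SD, n = 6) against 660, 506 and 788 CPM in ESC. Pvt1, the noncoding gene next to Myc, was 10.1 CPM in ESC and 8.38 to 10.4 CPM in the colonies, and it did not pass. The part of a Dox-driven copy in the difference of Myc was not tested. These gene levels cannot decide it, because the labels do not name the genes driven by Dox. Each count also includes RNA of the cell's own gene.

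Markers of another lineage moved with Myc in this comparison. All 16 primitive endoderm markers tested, genes of an extraembryonic tissue, rose in the colonies, and their sum was 1307 CPM in ESC, 4322 to 5075 CPM in GC colonies and 4815 to 7820 CPM in M colonies. Of 15 fibroblast markers tested, which feeder cells would carry, 8 rose and 0 fell, of which Pdgfra and Sparc are also in the primitive endoderm list, with sums of 2961 CPM in ESC and 3835 to 4733 CPM in the colonies. None of the 16 primitive endoderm markers was at 0 in any of the 7 libraries, Gata4, Gata6 and Sox17 included. Of 12 pluripotency markers, 9 fell and 1 rose (Lin28a). Of 11 B cell markers tested, 2 fell (Cd37 and Mef2b), or 18.2%, close to the 16.3% of all genes tested. The shares called were 100% of primitive endoderm, 53.3% of fibroblast and 83.3% of pluripotency markers. In bulk RNA, more cells of a type and more RNA per cell cannot be told apart, and the part of these markers in the difference of Myc was not tested.

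**Figure D3:**
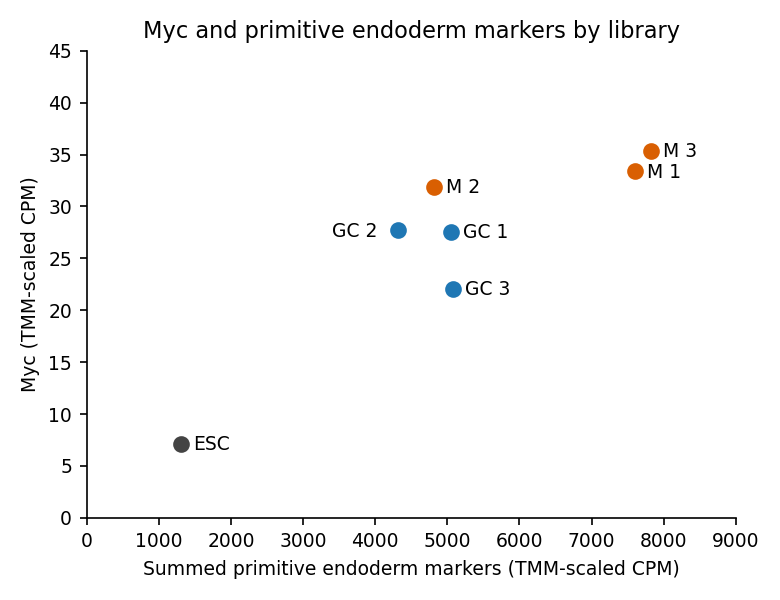
Myc level (vertical axis, TMM-scaled CPM) against the sum of 16 primitive endoderm markers (horizontal axis, TMM-scaled CPM), 1 point per library, both axes from 0. ESC is lowest on both axes. Marker sums were 4322 to 5075 CPM in GC colonies and 7601, 4815 and 7820 CPM in M colonies 1 to 3. Each M colony had more Myc than any GC colony.

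The other 2 Myc genes did not pass. Mycn (ENSMUSG00000037169, chromosome 12 from 12936093 to 12941914), the form named for neuroblastoma and strongly expressed in embryonic cells, was 204 CPM in ESC, 195, 183 and 187 CPM in GC colonies 1 to 3 and 221, 194 and 188 CPM in M colonies 1 to 3. ESC lay inside the range of the colonies, and the log2 change was -0.07 ± 0.09 (SE). Mycl (ENSMUSG00000028654, chromosome 4 from 122995652 to 123002485), the third Myc gene, ran from 16.6 to 20.1 CPM over the 7 libraries, with a log2 change of -0.10 ± 0.15 (SE).

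Max (ENSMUSG00000059436, chromosome 12 from 76937269 to 76962201), the shared partner, was 25.8 CPM per kb in ESC. It was 27.8, 25.7 and 25.9 CPM per kb in GC colonies 1 to 3 and 26.3, 25.4 and 25.0 CPM per kb in M colonies 1 to 3. ESC lay inside the range of the colonies. Its log2 change was 0.01 ± 0.09 (SE), and its spread over the 6 colonies, a coefficient of variation of 3.79%, was the smallest of the members.

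The Mxd genes, which code for repressors linked to cell cycle exit and differentiation, moved in both directions. Mxd4 (ENSMUSG00000037235, chromosome 5 from 34173883 to 34187720) was 4.05 CPM in ESC, 8.21, 7.68 and 9.88 CPM in GC colonies 1 to 3 and 8.74, 9.04 and 8.71 CPM in M colonies 1 to 3. Every colony exceeded ESC, and the log2 change was 1.10 ± 0.22 (SE) with an edgeR adjusted p = 0.00333. Mxd3 (ENSMUSG00000021485, chromosome 13 from 55325168 to 55329823), a family member that is unusual in being expressed in dividing cells, was 20.2 CPM in ESC, 11.7, 10.5 and 9.82 CPM in GC colonies 1 to 3 and 10.1, 12.0 and 9.67 CPM in M colonies 1 to 3. All colonies lay below ESC, and the log2 change was -0.93 ± 0.16 (SE) with an edgeR adjusted p = 0.00139. Both calls held in each of 14 alternative settings. Mxd3 shares 105 bases of exon, 4.43% of its own, with Prelid1 on the opposite strand. Prelid1 held 8694 to 11746 counts per library, and its log2 change of -0.09 ± 0.10 (SE) did not pass.

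Mxi1 (ENSMUSG00000025025, chromosome 19 from 53310518 to 53375810), also known as Mxd2, was 64.1 CPM in ESC, 49.6, 48.5 and 47.6 CPM in GC colonies 1 to 3 and 48.9, 49.2 and 58.6 CPM in M colonies 1 to 3. ESC was above every colony, with M colony 3 nearest to it. The log2 change was -0.35 ± 0.11 (SE) with an edgeR adjusted p = 0.0426. Leaving out GC colony 1 or 2, or M colony 1 or 2, ended that call (edgeR adjusted p from 0.0532 to 0.0827). Mxd1 (ENSMUSG00000001156, chromosome 6 from 86647042 to 86669161), the founding Mxd gene, was 6.30 CPM in ESC and 4.63 to 7.52 CPM in the colonies and did not pass.

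Mnt (ENSMUSG00000000282, chromosome 11 from 74830920 to 74845725), a widely expressed repressor that balances Myc, was 80.5 CPM in ESC and 68.2 to 83.9 CPM in the colonies, with a log2 change of -0.08 ± 0.09 (SE). Mga (ENSMUSG00000033943, chromosome 2 from 119897228 to 119969581), the PRC1.6 anchor, was 234 CPM in ESC and 187 to 248 CPM in the colonies, with a log2 change of -0.09 ± 0.11 (SE). Neither passed, and for both the ESC value lay within the range of the colonies.

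**Figure D4:**
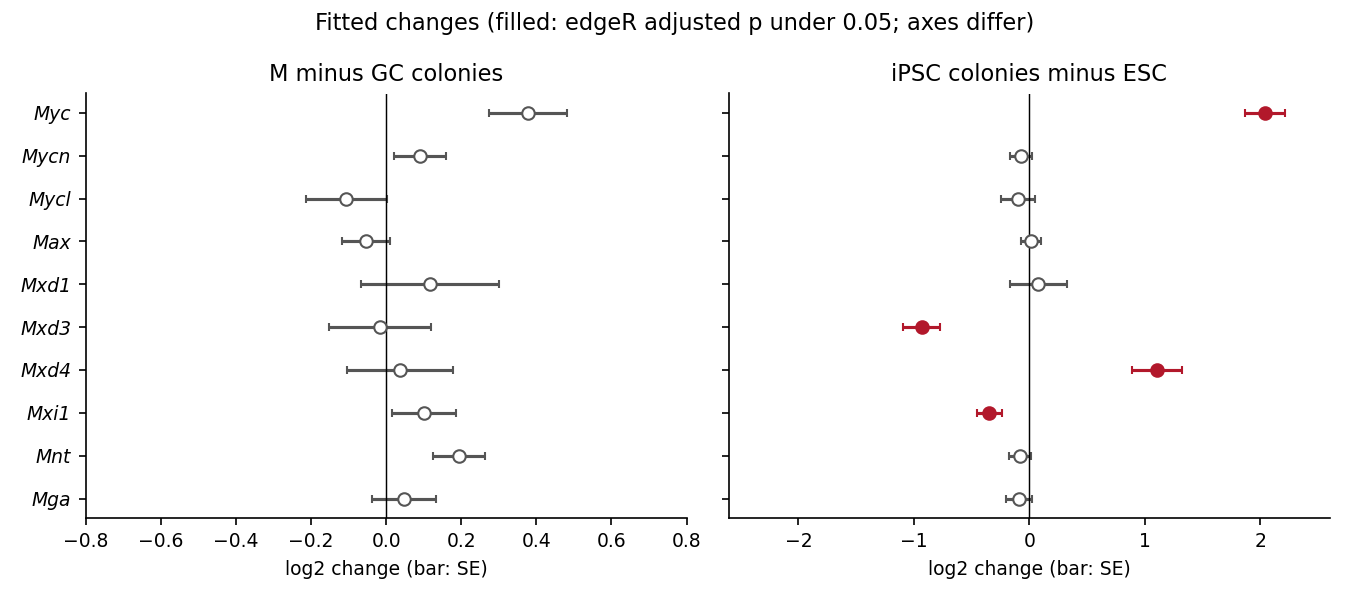
Log2 change with its SE (horizontal axis) of each member in M against GC colonies (left) and in iPSC colonies against ESC (right), with filled points where the edgeR adjusted p was under 0.05. The axes differ in scale, with no filled point on the left and Myc, Mxd4, Mxd3 and Mxi1 filled on the right.

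The 6 colony libraries were fitted on their own to set the M source against the GC source, since M colonies are read as descending from cells chosen by Myc expression. Of the 10 members, 0 passed in edgeR and in limma-voom and 1, Myc, passed in DESeq2, while 2 (Myc and Mnt) had an unadjusted edgeR p under 0.05. Over all 18166 genes tested, edgeR called 3.97% (1.7% higher and 2.27% lower in M), and 16.6% had an unadjusted p under 0.05. The 3 M values did not overlap the 3 GC values in 2 of the 10 members, M above in both, against 22.1% of all genes tested, or 10.1% with M above. The median log2 change was 0.069 over the members and 0.0027 over all genes.

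Myc in M colonies, at 33.5 ± 1.7 CPM (SD, n = 3), lay wholly above GC colonies, at 25.8 ± 3.2 CPM (SD, n = 3). The fitted difference was 1.30-fold, a log2 change of 0.38 ± 0.10 (SE), with an edgeR adjusted p = 0.0671. It passed with DESeq2 (adjusted p = 0.0154) and in edgeR without the low-count filter (adjusted p = 0.00780). Without the filter its log2 change was again 0.38 ± 0.10 (SE), and the cause of the lower p was not tested. It did not pass in the other 12 settings, with adjusted p up to 0.353, the value without M colonies 2 and 3, and the log2 change ran from 0.28 to 0.44 over all 14. Of the 16 primitive endoderm markers, 4 rose in M colonies in edgeR, or 25% beside 3.97% of all genes tested. All 16 were higher in M, with a median log2 change of 0.61 against 0.0027 over all genes. An unadjusted edgeR p under 0.05 was found for 15 of them, against 16.6% of all genes. The number called was 14 without M colony 2, 12 with the replicate block and 7 in DESeq2. It was 2 when either GC colony 2 or M colony 3 was left out. In the plot of both measures, marker sums were 7601, 4815 and 7820 CPM in M colonies 1 to 3, against 4322 to 5075 CPM in GC colonies. All 3 M colonies had more Myc than any GC colony. Of 15 fibroblast markers tested, 0 passed in edgeR and in limma-voom, 1 rose in DESeq2, and 4 had an unadjusted edgeR p under 0.05. The DESeq2 call was Pdgfra. Without M colony 2, 2 rose in edgeR, Pdgfra and Sparc, which are both also in the primitive endoderm list. Without GC colony 3, 1 rose, and it was neither of these. With M colony 1 as the only M library, the log2 changes of Pdgfra and Sparc were 0.85 and 0.50. Pou5f1 and Klf4 rose in M colonies, the 2 called by edgeR among 12 pluripotency markers, or 16.7% beside 3.97% of all genes. The Klf4 call was lost without GC colony 2 (edgeR adjusted p = 0.0575) and with M colony 1 as the only M library (0.205). DESeq2 and limma-voom each also called 1 pluripotency marker lower in M, and the blocked fit 2. In edgeR 1 of 10 B cell markers tested (Cd37) fell, or 10% beside 3.97% of all genes. The part of these markers in the difference of Myc was not tested.

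Mnt was 69.4, 68.2 and 75.9 CPM in GC colonies 1 to 3 and 82.8, 78.1 and 83.9 CPM in M colonies 1 to 3. Every M value was higher than every GC value, by 1.15-fold in the fit, or 0.19 ± 0.07 (SE) on the log2 scale. This did not pass (edgeR adjusted p = 0.166, and from 0.0607 to 0.520 over 14 settings). The other 8 members overlapped between the sources, with log2 changes from -0.11 ± 0.11 (SE) for Mycl to 0.12 ± 0.18 (SE) for Mxd1.

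The spread between sister colonies differed from member to member. The median coefficient of variation of the members was 7.40% over GC colonies and 4.45% over M colonies, against 10.2% and 10.5% over all genes tested. Those genes were not matched to the members in level, so the contrast cannot separate the network from its level of expression. Mga was 187, 211 and 248 CPM in GC colonies 1 to 3 but ran from 222 to 225 CPM in M colonies. Mxd1 was 7.52, 4.63 and 6.97 CPM in GC colonies 1 to 3, with colony 2 lowest, and 6.79 to 7.01 CPM in M colonies. The difference in spread between sources was not tested.

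The 5 genes whose log2 CPM followed Myc most closely over the 7 libraries, of 14744 with a mean of at least 1 CPM, were Csrp1, Nedd9, Anxa5, Zbtb4 and Krt7, with Pearson r from 0.993 to 0.996. These are descriptions over 7 points that share one low ESC library. Csrp1, a LIM-domain protein of the actin skeleton, was 76.8 CPM in ESC, 129 to 141 CPM in GC colonies and 151 to 160 CPM in M colonies. Krt7, a keratin of simple epithelia, was 4.83 CPM in ESC, 17.8 to 20.95 CPM in GC colonies and 25.2 to 28.3 CPM in M colonies.

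Genes that work with the network were read from fixed lists, whose shares called stand beside 16.3% of all genes tested between iPSC colonies and ESC and 3.97% between M and GC colonies. In the Mlx branch, whose factors pair with Mlx instead of Max and sense glucose, 0 of 3 passed in either comparison by edgeR, DESeq2 or limma-voom, with 1 (Mlxipl, the carbohydrate response factor) at an unadjusted p under 0.05 between M and GC colonies and 0 between iPSC colonies and ESC. Mlx was 28.9 CPM in ESC and 29.0 to 31.9 CPM in the colonies. Mlxip was 56.5 CPM in ESC and 54.2 to 61.3 CPM in the colonies, and Mlxipl was 7.47 CPM in ESC and 5.01 to 8.75 CPM in the colonies.

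Of 14 PRC1.6 partners of Mga and Max, 1 rose (Cbx1), 3 fell (Wdr5, Rnf2 and Tfdp1) and 10 did not pass between iPSC colonies and ESC, or 28.6% called beside 16.3% of all genes. Wdr5, a WD-repeat scaffold shared with methyltransferase complexes and also a Myc cofactor, was 324 CPM in ESC and 237 to 258 CPM in the colonies, a log2 change of -0.36 ± 0.08 (SE). It was called without any 1 colony, whereas Cbx1 was lost without GC colony 2, or without M colonies 2 and 3, and Rnf2 and Tfdp1 were each lost without 4 of the 6 colonies in turn. The subunits most particular to this complex were close between libraries and did not pass. Pcgf6, which defines the complex, was 84.7 CPM in ESC and 75.2 to 86.1 CPM in the colonies. L3mbtl2 was 101 CPM in ESC and 97.2 to 112 CPM in the colonies, and E2f6, which brings it to E2F sites, was 38.9 CPM and 36.7 to 41.4 CPM. Between M and GC colonies 0 of the 14 passed in edgeR, DESeq2 or limma-voom, and 3 had an unadjusted edgeR p under 0.05.

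Of 13 subunits of the Sin3 corepressor used by Mxd proteins and Mnt, 0 rose and 3 fell in iPSC colonies against ESC, or 23.1% called, not far from the 16.3% of all genes. Sap30, a Sin3-bound subunit, fell from 114 CPM in ESC to 68.5 to 87.0 CPM in the colonies, a log2 change of -0.55 ± 0.11 (SE). Sin3b, a scaffold of the complex, fell from 131 CPM to 95.8 to 109 CPM, and both were called without any 1 colony. Rbbp4, a histone-binding subunit, was 542 CPM in ESC and 467 to 473 CPM in the colonies and lost its call without each of 5 colonies in turn. In M against GC colonies 0 of 13 passed in edgeR, DESeq2 or limma-voom, and 0 had an unadjusted edgeR p under 0.05.

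Of 21 Myc cofactors, 0 rose and 4 fell (Wdr5, Ruvbl2, Kat2a and Smarcb1) between iPSC colonies and ESC. This is 19.0% of the list, close to the 16.3% of all genes. Ruvbl2, an ATPase of chromatin complexes, was 519 CPM in ESC and 378 to 424 CPM in the colonies, a log2 change of -0.34 ± 0.07 (SE). Kat2a, a histone acetyltransferase, lost its call without GC colony 2 or without M colonies 2 and 3, and Smarcb1, a remodeller subunit, without each of 5 colonies in turn and in limma-voom (adjusted p = 0.0519). Zbtb17 (Miz1), through which Myc represses genes, was 36.8 CPM in ESC and 30.99 to 36.2 CPM in the colonies and did not pass. Of the 21, 0 passed between the colony sources in edgeR, DESeq2 or limma-voom, and 1 had an unadjusted edgeR p under 0.05.

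Of 20 genes of Myc protein turnover, 1 rose (Usp36) and 1 fell (Btrc) between iPSC colonies and ESC, or 10% called, below the 16.3% of all genes. Btrc, an F-box protein of a ubiquitin ligase, was 63.8 CPM in ESC and 45.8 to 51.5 CPM in the colonies. Usp36, a nucleolar deubiquitinase, was 74.3 CPM in ESC and 85.5 to 96.6 CPM in the colonies, and its call was lost without GC colony 2 or any 1 M colony, without M colonies 2 and 3, with limma-voom and in the blocked fit (adjusted p = 0.0515). Fbxw7, the F-box protein that marks Myc for breakdown, was 38.2 CPM in ESC and 39.0 to 46.6 CPM in the colonies and did not pass. Between M and GC colonies 1 of 20 was called, Usp28, a deubiquitinase that counters Fbxw7. That is 5% of the list, near the 3.97% of all genes. Usp28 was 271, 279 and 309 CPM in GC colonies 1 to 3, 242, 226 and 240 CPM in M colonies 1 to 3 and 268 CPM in ESC, so the sources lay on opposite sides of ESC. Its log2 change was -0.28 ± 0.07 (SE) with an edgeR adjusted p = 0.0309, a call lost without each colony but GC colony 1 (edgeR adjusted p up to 0.137) and without M colonies 2 and 3 (0.369).

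Of 39 genes known to be induced by Myc that were matched and tested, 4 rose (Ccnd2, Tfrc, Rrp12 and Nolc1) and 7 fell (Shmt2, Slc7a5, Slc3a2, Mcm5, Impdh2, Paics and Pcna) between iPSC colonies and ESC. That is 28.2% called, beside 16.3% of all genes, with a median log2 change of 0.025. Ccnd2, a D-type cyclin, rose from 20.5 CPM in ESC to 56.8 to 86.0 CPM in the colonies. Tfrc, the transferrin receptor, rose from 333 CPM to 467 to 537 CPM. In the other direction, Shmt2, a mitochondrial enzyme of one-carbon metabolism, fell from 447 CPM to 276 to 314 CPM, and Slc7a5, an amino acid transporter, from 518 CPM to 295 to 374 CPM. These 4 calls held without any 1 colony. Of the 39, 0 passed between M and GC colonies in edgeR and limma-voom, 1 passed in DESeq2 and 4 had an unadjusted edgeR p under 0.05.

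Of 13 genes known to be repressed by Myc, 4 rose (Clu, Gata6, Cdkn2b and Gadd45g) and 2 fell (Ndrg2 and Txnip) between iPSC colonies and ESC, or 46.2% called beside 16.3% of all genes, with a median log2 change of -0.0014. Without M colonies 2 and 3, 4 fell. Cdkn2b, an inhibitor of cyclin-dependent kinases, was 5.40 CPM in ESC and 11.3 to 15.1 CPM in the colonies. Clu, a secreted chaperone, was 33.5 CPM in ESC and 132 to 299.5 CPM in the colonies. Gata6, a primitive endoderm factor that is also in that marker list, was 9.32 CPM in ESC and 27.3 to 57.5 CPM in the colonies. Between M and GC colonies 1 of 13 was called (7.69%, beside 3.97% of all genes), Ndrg2, at 62.7 to 64.7 CPM in GC and 48.4 to 55.3 CPM in M colonies (edgeR adjusted p = 0.0278). Of the 6 leave-outs, those of GC colonies 1 and 2 and of M colonies 1 and 3 ended this call (highest edgeR adjusted p = 0.161). With M colony 1 as the only M library it did not pass either (edgeR adjusted p = 0.106), and 1 other gene of the list rose.

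Of 15 genes that act upstream of Myc, 0 rose and 3 fell (Prdm1, Ctcf and Hnrnpk) between iPSC colonies and ESC, or 20% called, close to the 16.3% of all genes. Prdm1, a repressor of Myc in B cells that also acts in germ cells, was 17.0 CPM in ESC, 10.7 to 13.0 CPM in GC colonies and 6.72 to 9.02 CPM in M colonies. Ctcf and Hnrnpk each lost the call without 4 of the 6 colonies in turn, and the number fallen in the list ran from 1 (without GC colony 1, GC colony 2, M colony 2 or M colony 3) to 6 (without GC colony 3). Without M colonies 2 and 3, 2 rose and 1 fell. Between M and GC colonies Tcf7l1, a repressor in the Wnt pathway, fell from 96.9 to 103 CPM in GC to 73.5 to 87.8 CPM in M colonies (edgeR adjusted p = 0.0276). It did not pass once GC colony 1 or 2, or M colony 2 or 3, was left out (highest edgeR adjusted p = 0.186), nor with M colony 1 as the only M library (0.525).

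Germline genes, several of which are known to be silenced by Max and Mga in embryonic stem cells, were also read from a list. Of 23 tested, 2 rose (Tex15 and Ddx4), 3 fell (Stra8, Smc1b and Stag3) and 18 did not pass in M against GC colonies, with a median log2 change of -0.096. This is 21.7% of the list, beside 3.97% of all genes tested. Tex15, a gene of meiotic repair and transposon silencing, was 4.94, 5.61 and 7.15 CPM in GC colonies 1 to 3 and 9.44, 18.4 and 18.4 CPM in M colonies 1 to 3. The groups did not overlap, M colonies 2 and 3 were highest, and the log2 change was 1.38 ± 0.23 (SE) with an edgeR adjusted p = 0.00506. With M colony 1 as the only M library, Tex15 did not pass (edgeR adjusted p = 0.252). Ddx4, a germ cell RNA helicase, was 34.1 to 35.0 CPM in GC colonies and 40.6, 54.9 and 53.1 CPM in M colonies 1 to 3, again highest in the 2 colonies without Y-linked counts.

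Stra8, the retinoic acid-induced switch to meiosis, went the other way, at 23.4, 25.2 and 20.7 CPM in GC colonies 1 to 3 and 14.6, 17.6 and 13.0 CPM in M colonies 1 to 3. Its edgeR adjusted p was 0.0164. Smc1b, a meiotic cohesin subunit, was 32.5 to 37.4 CPM in GC and 21.4 to 27.0 CPM in M colonies (edgeR adjusted p = 0.0132). The call of Stra8 ended when GC colony 1 or 2 or M colony 3 was left out, that of Smc1b with GC colony 2 or M colony 3, and that of Ddx4 with GC colony 2 or either of M colonies 2 and 3. Leaving out GC colony 2 or M colony 3 left 1 risen gene and 0 fallen in the list, and leaving out M colonies 2 and 3 left 0 risen and 1 fallen.

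Against ESC, 3 of the same 23 germline genes rose (Taf7l, Mael and Sycp1), 9 fell and 11 did not pass, with a median log2 change of -0.23. That is 52.2% of the list, beside 16.3% of all genes. Stra8 fell from 41.98 CPM in ESC to 13.0 to 25.2 CPM in the colonies, a log2 change of -1.17 ± 0.15 (SE), and Majin, a meiotic telomere protein, was 2.71 CPM in ESC and 0.427 to 1.32 CPM in the colonies. Mael, a factor of the germline small RNA pathway, rose from 14.7 CPM in ESC to 21.4 to 28.9 CPM in the colonies, and Taf7l, a germ cell form of a general transcription subunit, from 2.58 CPM to 4.69 to 6.38 CPM. These 4 calls held without any 1 colony, and Majin's was lost without M colonies 2 and 3 (edgeR adjusted p = 0.0641). Mga and Max themselves did not pass in either comparison.

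**Figure D5:**
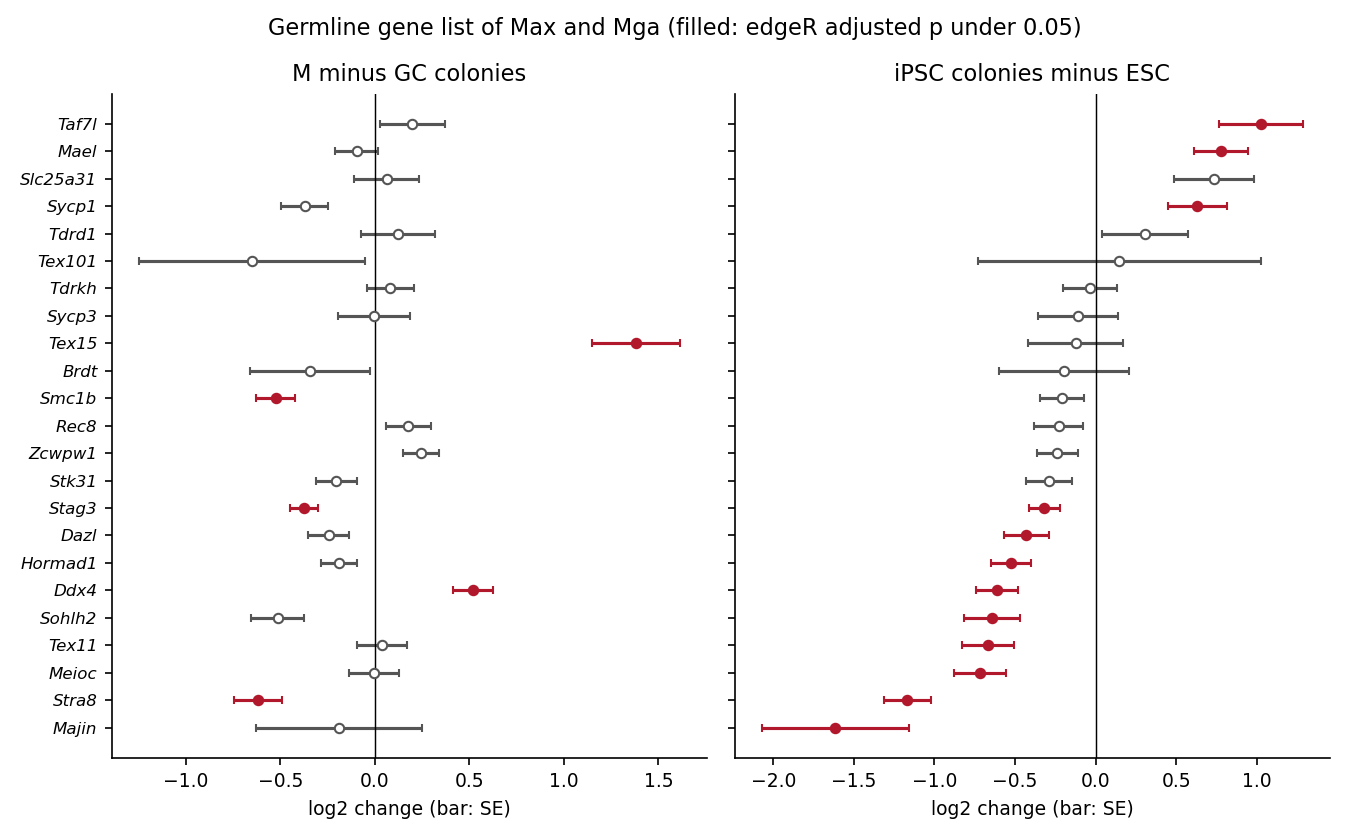
Log2 change with its SE (horizontal axis) of the 23 germline genes in M against GC colonies (left) and in iPSC colonies against ESC (right), sorted by the right-hand value, with filled points where the edgeR adjusted p was under 0.05. On the left 5 points are filled, with Tex15 farthest to the right, and on the right 12 are filled, of which 9 lie below 0.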

How the data were processed

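The deposited table, made by the authors, holds whole-number counts per Ensembl gene for 7 libraries, with no normalization. The submitters' processing notes name STAR 2.7.10a, featureCounts 2.0.6, DESeq2 and the mouse build GRCm38 (mm10). The annotation and strand setting are not given in the sources used here, and the labels disagree on whether libraries were stranded. Among counts of 1 to 49, 68.5% to 72.2% were even, against 49.5% to 50.9% of high counts, and the cause was not tested. Names, positions and exon lengths came from GENCODE release M21, which held 54723 of 54838 genes.

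Genes were filtered with filterByExpr and scaled by TMM, and two-sided p-values came from edgeR 4.0.16 (quasi-likelihood) in R 4.3.3, with Benjamini-Hochberg adjustment over all genes at a threshold of 0.05. SEs are the log2 change over the square root of F. The steps were tested on simulated data. DESeq2 1.42.0, limma-voom (limma 3.58.1), RLE scaling, other filters, a replicate block and left-out colonies were alternatives. All members are named. Of each list, the called genes are named, with values for at most the 4 largest changes per comparison, and Mlx, Mlxip, Mlxipl, Pcgf6, L3mbtl2, E2f6, Zbtb17, Fbxw7 and Pvt1 always. Prelid1 and the split by Y-linked counts were singled out after their values were seen. Members, lists and tests were chosen with earlier results of these data known. Of the lists, Phb1 and Meiosin found no match.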

Additional observations from a re-analysis of the deposited data

Results flagged for a closer look

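Usp28 was the only named gene whose GC colonies all lay above ESC (268 CPM) and whose M colonies all lay below it. Its log2 change of M minus GC colonies was -0.28, with an edgeR adjusted p = 0.0309 for that difference, and the call was lost without each of 5 colonies in turn.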

How the results depend on the processing

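Between M and GC colonies, the count of called genes, 721 as reported, was 1110 with DESeq2, 1318 without the low-count filter and 373 without M colonies 2 and 3, and ran from 244 to 814 when 1 colony was left out (412, 244 and 270 with GC colony 1, GC colony 2 and M colony 3 left out). Network members called were 1 with DESeq2 and 1 without the filter, and 0 in each leave-out. The share of the network held by the 3 Myc genes differed by 3.17 percentage points (M minus GC) without M colonies 2 and 3, against 1.23 as reported, and from 0.261 (without M colony 1) to 1.88 when 1 colony was left out, with 0.495 without GC colony 3. Small changes that did not pass took both signs when 1 colony was left out: between M and GC colonies, from -0.116 to 0.058 for Mxd3, -0.043 to 0.166 for Mga, -0.060 to 0.257 for Mxd1 and -0.031 to 0.155 for Mxd4, and against ESC, from -0.0041 to 0.022 for Max. Mycl was 0.063 without M colonies 2 and 3. The cause was not tested. Against ESC, the count of 3344 called genes (1795 up, 1549 down) became 2778 with limma-voom (1194 up, 1584 down). Members called there were 3 or 4 in all 14 alternatives.

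With the colony number as a replicate block, 963 genes were called between M and GC colonies and 3648 against ESC, with 0 and 4 members, and 12 of 16 primitive endoderm markers rose in M colonies, against 4 as reported. Same-numbered GC and M colonies had correlated deviations of 0.092, 0.083 and 0.148, against -0.13 to 0.045 for the other pairs. Deviations were taken from the mean of each source, so these correlations are not independent of each other. They cannot establish a pairing, which the labels do not give and which was not tested. Depth did not limit detection of any member, each with at least 121 counts per library.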
